A study of Mus musculus with 6 samples.

Results

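Inflammasome sensors, their adapter and proteases, and the gasdermins were read from microarrays of mouse colon tumor tissue. The 10 genes Nlrp3, Nlrp6, Nlrc4, Aim2, Pycard, Casp1, Casp4, Gsdmd, Gsdmc2 and Gsdmc4 were taken by symbol, with all of their probes, which gave 13 probes among the 56605 gene probes of the array and 10 of its 37325 gene names. Tumor bearing colon tissue came from 6 male C57BL/6 mice, with 1 one-color Agilent array for each. All of these mice had been bought at 6 to 8 weeks of age, injected with the carcinogen azoxymethane (AOM, 10 μg/g) and given 2% dextran sodium sulfate (DSS), which injures and inflames the colon, in the drinking water, so that the controls carried colitis-associated tumors as well. RG@M-γ-CD, a nanoparticle of the kinase inhibitor regorafenib in mannose-modified γ-cyclodextrin, was given by mouth to 3 mice (30 μg/g of the complex, or 10 μg/g regorafenib), and the vehicle PBS to the other 3, over 21 days with 14 days of observation after them.

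An inflammasome is a protein platform that forms when a sensor in the cytosol meets a microbial product or a sign of damage. Sensors such as NLRP3, NLRP6, NLRC4 and AIM2 recruit caspase-1, often through the adapter ASC, which Pycard encodes, and caspase-1 then matures the cytokines IL-1β and IL-18 and cuts gasdermin D, whose fragment opens pores in the cell membrane. In the colon, epithelial cells and macrophages both use these platforms, and the pathway is known for its part in defence against bacteria, in mucus secretion and in colitis.

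The sources disagree on which arrays belong together. By the labels, arrays 5, 6 and 7 are RG@M-γ-CD replicates 1, 2 and 3 and arrays 8, 10 and 11 are PBS replicates 1, 2 and 3, whereas in a supplementary heat map of the study arrays 6, 7 and 8 form one block of columns and arrays 5, 10 and 11 the other, with no condition named. Values are therefore given as labelled, and where they bear on a result also as arrays 6, 7 and 8 minus arrays 5, 10 and 11, with neither side named as treated. All 6 arrays came from 1 slide and 1 scan, with PBS replicates 2 and 3 in row 2 and the others in row 1. Row 2 held no RG@M-γ-CD array, so a fit with the slide row as a block compares RG@M-γ-CD with PBS replicate 1 alone. From 49.6% to 55.2% of an array's gene probes gave a signal well above background. Over all genes tested, RG@M-γ-CD replicate 2 stood farthest from the median of the arrays, with a mean absolute difference of 0.45 on the log2 scale against 0.17 to 0.29 for the others. RG@M-γ-CD replicate 1 correlated at 0.985 and 0.987 with PBS replicates 2 and 3, and at 0.941 and 0.973 with replicates 2 and 3 of its group. PBS replicate 1 correlated at 0.981 and 0.983 with PBS replicates 2 and 3, and at 0.972 and 0.977 with RG@M-γ-CD replicates 2 and 3. Which grouping is right was not tested. RG@M-γ-CD replicate 1 stood apart from replicates 2 and 3 of its group in the smooth muscle markers, whose summed level was 104 there against 675 and 809, and in the macrophage markers, at 177 against 79.2 and 85.8. Epithelial markers were well above background on all 6 arrays (10 of 10 genes), with summed levels of 1105 to 1557, as colon tissue should hold them. These sums are linear intensities in units of each array's 75th percentile.

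Some of the probes measure genes that are close copies of each other, and the sequences below show how close. Gsdmc, Gsdmc2, Gsdmc3 and Gsdmc4 lie in a row on chromosome 15 with no other protein-coding gene between them in RefSeq (GRCm38.p6). With 1 probe of 60 bases taken for each gene, the longest shared run of each pair was sought. For the 2 pairs that shared more than 5 bases, 30 bases around the run are printed 5′ to 3′, with the shared run in capitals. A further probe with the name Gsdmc, which could not be tied to a RefSeq gene, was not compared. The probes of Gsdmc and Gsdmc2 shared 17 bases, and those of Gsdmc2 and Gsdmc4 shared 14.
Gsdmc, around its run with Gsdmc2: gcctcaGTCCTGGATACATTTGAgatattg
Gsdmc2, around its run with Gsdmc: acGTCCTGGATACATTTGAtatattgcacc
Gsdmc2, around its run with Gsdmc4: ttgcaccaTGCATGTTTTAGGCcagtggga
Gsdmc4, around its run with Gsdmc2: gaatcgagTGCATGTTTTAGGCtggtggga
With the shared runs set under each other and no gaps, the probes of Gsdmc and Gsdmc2 were equal at 30 of 42 facing bases and those of Gsdmc2 and Gsdmc4 at 28 of 47. Binding of one gene's transcripts to the probe of another was not tested, and the levels of these genes are uncertain to that extent. The accessions that the scanner output lists for the Gsdmc3 probe include transcripts of Gsdmc2 as well as of Gsdmc3, so this probe cannot separate them, whereas the accessions of the Gsdmc2 and Gsdmc4 probes name 1 gene each.

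Levels are given on the log2 scale against the 75th percentile of all gene probes of that array, so that a difference of 1 is a doubling, and a level is compared only with the same probe on other arrays. For the test, a gene took the brightest of its probes that stood well above background throughout 1 group or both, and p-values from limma were adjusted over 19087 genes by Benjamini-Hochberg. As labelled, 9 of the 10 member genes could be tested and 0 passed an adjusted p of 0.05, as did 0% of all genes tested. The smallest adjusted p among the members was 1.0. At an unadjusted p below 0.05 stood 1 member, Casp4, against a background of 2.2% of all genes. In RG@M-γ-CD, 4 of the 9 members were higher and 5 lower, with a median difference of −0.013, and 52.8% of all genes were lower, with a median of −0.012. The plot of each array's level shows that the groups overlapped in 8 of the 9 members. In the whole table they did not overlap in 4.57% of genes. Because the tissue is a mixture, a lower level may come from fewer cells of a type or from less RNA in each, and these arrays cannot tell the cases apart.

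**Figure D1:**
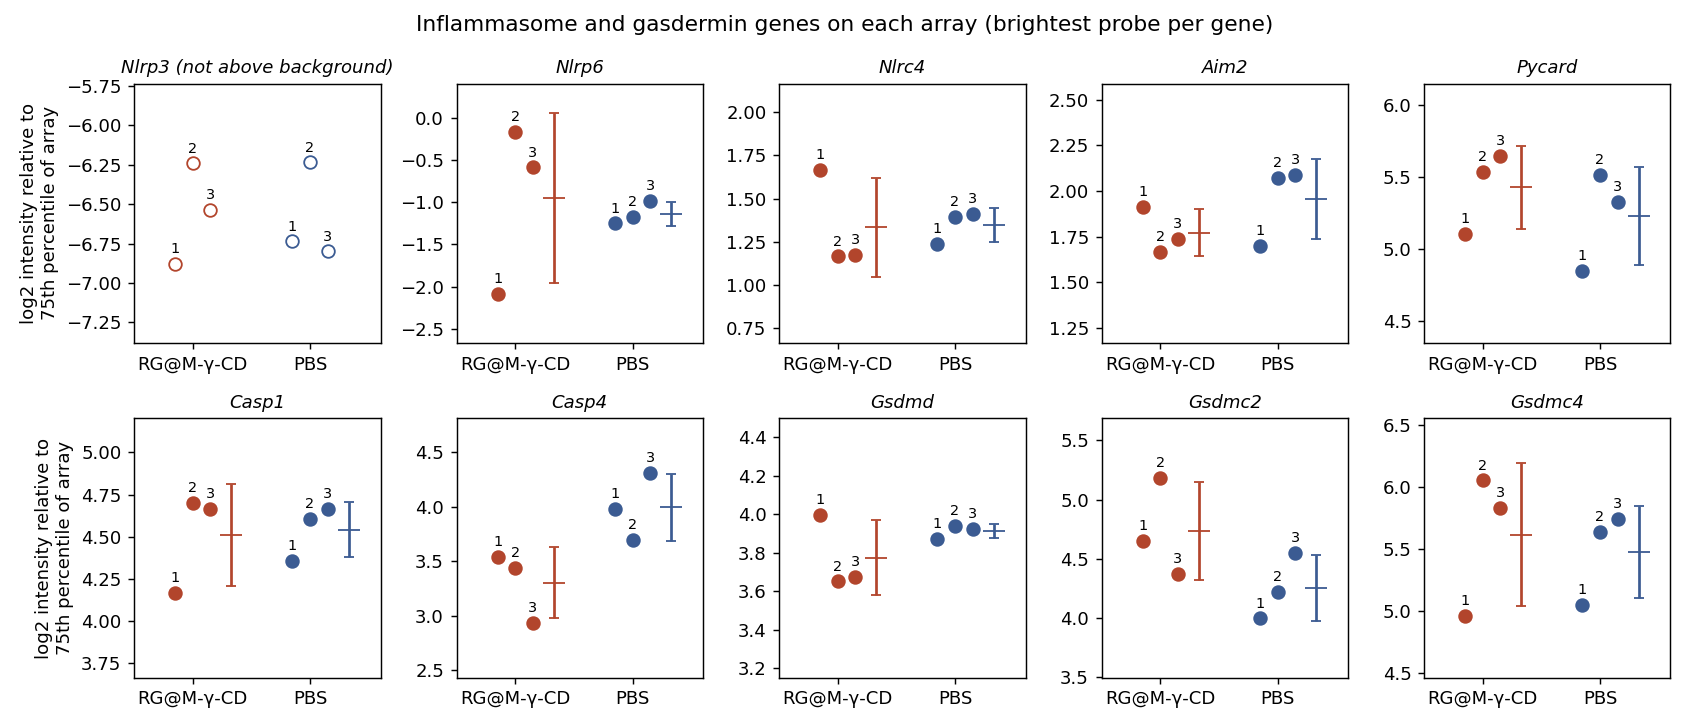
Level of each member gene on each array, as log2 intensity relative to the array's 75th percentile (vertical axes, scaled by gene), for RG@M-γ-CD (red) and PBS (blue); numbers are replicates, the dash and bar are mean ± SD (n = 3), and open circles mark the probe of Nlrp3, which was dim throughout. Casp4 is the gene whose red points all lie below the blue, and the RG@M-γ-CD arrays of Nlrp6 span −2.09 to −0.17.

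Among the sensors, Nlrp3, which responds to many signs of membrane damage in myeloid cells, was not well above background on any of the 6 arrays. Its probe (A_52_P650540, chr11:59378554-59378613 in mm9, plus strand) read −6.88 to −6.24 in RG@M-γ-CD and −6.80 to −6.23 in PBS, while the dimmest signal well above background lay between −4.62 and −3.98 on the 6 arrays, so that no difference in Nlrp3 was detectable. Nlrp6, a sensor of the intestinal epithelium tied to mucus secretion by goblet cells, varied most among the members. Its probe (A_55_P2745307, chr7:148113385-148113444, plus strand) read −2.09, −0.17 and −0.59 in RG@M-γ-CD replicates 1, 2 and 3 and −1.25, −1.18 and −0.98 in the PBS arrays. Replicate 1 of RG@M-γ-CD was thus the lowest and replicates 2 and 3 the highest of the 6 arrays, with the PBS arrays between them. The RG@M-γ-CD mean was −0.95 ± 1.01 (SD, n = 3) and the PBS mean −1.14 ± 0.14, and the difference of 0.19 (95% interval −0.97 to 1.35, adjusted p = 1.0) lay within this spread. The SD pooled over both groups, 0.72 for Nlrp6, was above that of 88.8% of all genes tested.

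Without RG@M-γ-CD replicate 1, Nlrp6 was higher by 0.76 (unadjusted p = 0.00995, adjusted p = 0.196 from limma), the lowest adjusted p of any member in that fit. The fit without this array had 2 members, Nlrp6 and Casp4, at an unadjusted p below 0.05, where 11.9% of all genes stood, and 0 members past the adjusted threshold, which 0.88% of all genes passed. Without RG@M-γ-CD replicate 2 the difference in Nlrp6 was −0.20, so 1 array decided its direction. Arrays 6, 7 and 8 differed from arrays 5, 10 and 11 by 0.75 in Nlrp6 (standard error 0.38, unadjusted p = 0.0948).

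Nlrc4 forms the inflammasome that answers bacterial flagellin and secretion systems, with NAIP proteins as receptors. Its probe (A_52_P655136, chr17:74826172-74826231, minus strand) read 1.66, 1.17 and 1.17 in RG@M-γ-CD and 1.24, 1.39 and 1.41 in PBS. Replicate 1 of RG@M-γ-CD was the highest and replicates 2 and 3 the lowest, the opposite order to Nlrp6, and the difference of the means was −0.013 (95% interval −0.47 to 0.45). Aim2, which binds double-stranded DNA in the cytosol, is measured by a pair of probes. The brighter (A_66_P134497, chr1:175385660-175385719, plus strand) read 1.91, 1.67 and 1.74 in RG@M-γ-CD and 1.70, 2.07 and 2.09 in PBS, a difference of −0.18 (95% interval −0.61 to 0.24, unadjusted p = 0.341 from limma). The other (A_55_P2080130, chr1:175396036-175396095, plus strand) read −0.19, −0.49 and −0.25 in RG@M-γ-CD and −0.12, −0.21 and −0.15 in PBS, with a difference of −0.15, so both probes were lower in RG@M-γ-CD with overlapping groups.

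The heat map grouping set Aim2, Nlrc4 and Gsdmd apart without overlap, each lower in arrays 6, 7 and 8, but under that grouping 25.5% of all genes did not overlap. Aim2 differed by −0.32 (standard error 0.12, unadjusted p = 0.0384, adjusted p = 0.297 from limma) and was the 1 member at an unadjusted p below 0.05, against 16.5% of all genes. Nlrc4 differed by −0.30 (unadjusted p = 0.0665). The median of all genes was −0.12 under this grouping, so part of each negative difference is shared with the whole table.

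Pycard encodes ASC, the adapter that links most sensors to caspase-1. Its probe (A_51_P438821, chr7:135136241-135136300, minus strand) read 5.11, 5.54 and 5.65 in RG@M-γ-CD and 4.85, 5.51 and 5.33 in PBS. The lowest array of each group was its replicate 1, the groups overlapped, and the difference was 0.20 (95% interval −0.39 to 0.79). It was 0.0089 without PBS replicate 1 and 0.36 without RG@M-γ-CD replicate 1. With the slide row as a block, which leaves PBS replicate 1 as the only control, it was 0.58. A further probe with the name Pycard (A_66_P121765, chr7:135140025-135140084) lies on the plus strand, opposite to the gene, and was well above background on 1 of 3 arrays in each group, so it is no second measure of Pycard. Casp1, the protease of the platform, had 1 probe (A_55_P1990944, chr9:5307206-5307265, plus strand), which read 4.17, 4.70 and 4.67 in RG@M-γ-CD and 4.36, 4.61 and 4.67 in PBS. The difference of −0.032 (95% interval −0.53 to 0.46) was close to 0, and replicate 1 was again the lowest of each group.

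Casp4, the gene next to Casp1 on chromosome 9, encodes the mouse protease usually called caspase-11, which binds bacterial lipopolysaccharide in the cytosol and cuts gasdermin D without a sensor of the NLR family. Its probe (A_55_P2091461, chr9:5336658-5336717, plus strand) read 3.54, 3.44 and 2.93 in RG@M-γ-CD and 3.98, 3.70 and 4.31 in PBS. Each RG@M-γ-CD array lay below each PBS array, and 4.57% of all genes had no overlap. The means were 3.30 ± 0.33 and 4.0 ± 0.31 (SD, n = 3 each), a difference of −0.70 (standard error 0.24, 95% interval −1.28 to −0.11), or 1.62-fold lower in RG@M-γ-CD, with an unadjusted p of 0.0268 and an adjusted p of 1.0 from limma. The unadjusted p from limma was not below 0.05 without RG@M-γ-CD replicate 3 (0.0925), PBS replicate 1 (0.0613) or PBS replicate 3 (0.0960). With the slide row as a block, which leaves PBS replicate 1 as the only control, the difference was −0.68. The difference ranged from −0.85 to −0.51 with each array left out in turn and was −0.40 in arrays 6, 7 and 8 minus the others (unadjusted p = 0.261). Macrophage markers moved in the same direction as labelled, with 10 of 10 genes lower, a median of −0.44 and summed levels of 79.2 to 177 in RG@M-γ-CD and 154 to 178 in PBS, and their part in the Casp4 difference was not tested. Over the 6 arrays Casp4 correlated with the macrophage sum at r = 0.70 and with the neutrophil sum at r = 0.66, as a description. Its values with the other marker sums ran from −0.57 (smooth muscle) to 0.47 (squamous epithelium). Gsdmd correlated with the macrophage sum at r = 0.98, but also with the smooth muscle sum at −0.98 and the squamous epithelium sum at 0.89. Its values with the remaining sums ran from −0.48 (goblet) to 0.49 (neutrophil). The macrophage sum is mostly the signal of 1 gene, Lyz2.

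**Figure D2:**
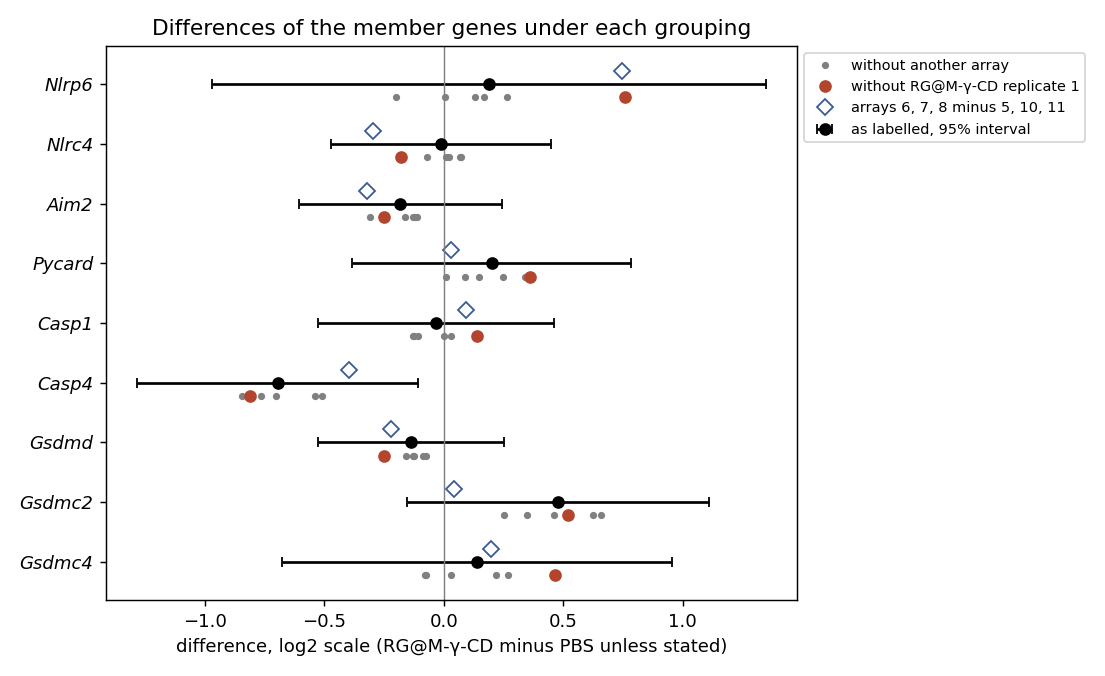
Difference of each tested member on the log2 scale (horizontal axis): black points and bars are RG@M-γ-CD minus PBS as labelled with the 95% interval from limma (n = 3 each), dots below them leave out 1 array (red: RG@M-γ-CD replicate 1), and diamonds above them are arrays 6, 7 and 8 minus arrays 5, 10 and 11. The interval of Casp4, −1.28 to −0.11, is the one that lies on one side of 0, and the red dot of Nlrp6 stands at 0.76.

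Gsdmd encodes gasdermin D, the pore former that both caspases cut. Its brighter probe (A_51_P172231, chr15:75697536-75697595, plus strand) read 4.0, 3.65 and 3.67 in RG@M-γ-CD and 3.87, 3.94 and 3.93 in PBS. The other probe (A_66_P106903, within chr15:75695520-75695884, plus strand) read 1.05, 0.55 and 0.71 in RG@M-γ-CD and 0.93, 0.89 and 1.02 in PBS. On both probes RG@M-γ-CD replicate 1 was the highest and replicates 2 and 3 the lowest of the 6 arrays, and the differences of −0.14 (95% interval −0.53 to 0.25) and −0.18 did not pass. Arrays 6, 7 and 8 differed from the others by −0.22 on the brighter probe (unadjusted p = 0.132). Without RG@M-γ-CD replicate 1 the difference as labelled was −0.25.

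Gsdmc2 and Gsdmc4 belong to the gasdermin C genes, which are expressed in the intestinal epithelium and are known to respond to type 2 cytokines. The probe of Gsdmc2 (A_66_P138990, chr15:63656392-63656451, minus strand) read 4.65, 5.18 and 4.37 in RG@M-γ-CD and 4.0, 4.22 and 4.55 in PBS. PBS replicate 3 lay above RG@M-γ-CD replicate 3, so the groups overlapped. The means were 4.74 ± 0.41 and 4.26 ± 0.28 (SD, n = 3 each), and the difference of 0.48 was the highest among the members and did not pass the test (95% interval −0.15 to 1.11, unadjusted p = 0.115, adjusted p = 1.0 from limma). It was 0.25 without RG@M-γ-CD replicate 2, 0.74 with the slide row as a block, and 0.044 in arrays 6, 7 and 8 minus the others. The probe of Gsdmc4 (A_55_P2164932, chr15:63723278-63723337, minus strand) read 4.96, 6.05 and 5.83 in RG@M-γ-CD and 5.05, 5.64 and 5.74 in PBS, a difference of 0.14 (95% interval −0.68 to 0.95). As in Casp1 and Pycard, the replicate numbered 1 was the lowest of each group.

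The other gasdermin C genes were read beside these members. Gsdmc3, on the probe that also lists Gsdmc2, read 5.73, 6.65 and 5.87 in RG@M-γ-CD and 5.58, 5.63 and 5.67 in PBS. Each RG@M-γ-CD array lay above each PBS array, the nearest at 5.73 and 5.67, and 4.57% of all genes had no overlap. The difference was 0.45 (standard error 0.26, unadjusted p = 0.132, adjusted p = 1.0 from limma). Gsdmc differed by 0.17 (standard error 0.24). On the 1 probe tested for each, all 4 gasdermin C genes were thus higher in value as labelled, none past the test. RG@M-γ-CD replicate 2 was the highest array for each. The further probe with the name Gsdmc was not read here. The probe of Gsdmc3 shared at most 5 bases in a row with any of the others, but its listed accessions include Gsdmc2, and whether the 4 probes give separate measures was not tested.

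The rest of the pathway was described on 52 other genes, of which 48 were tested. As labelled, RG@M-γ-CD was higher in 17 and lower in 31 of them, with a median of −0.13, and 0 passed the adjusted threshold. In the fit that left out RG@M-γ-CD replicate 1 the count was 1, Il1b, where 0.88% of all genes passed. At an unadjusted p below 0.05 stood 2 of the 48 as labelled, both lower, where 2.2% of all genes stood. Mefv, which encodes the sensor pyrin, read −1.35, −1.66 and −1.73 in RG@M-γ-CD and −0.46, −1.14 and −1.18 in PBS, a difference of −0.65 (standard error 0.25, unadjusted p = 0.0355 from limma), with no overlap, as in 4.57% of all genes. Irgm1, an interferon-induced GTPase, differed by −0.55 (standard error 0.23, unadjusted p = 0.0483 from limma). Both differences were near 0 in arrays 6, 7 and 8 minus the others, at −0.055 and 0.016.

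Among the other sensors 6 of 13 were higher and 7 lower, with Nlrp1b, a sensor of bacterial proteases, at 0.42. Activators and upstream factors such as the guanylate-binding proteins had 5 of 14 higher, and Irf2, a transcription factor, stood at 0.30. Of the proteases and inhibitors 2 of 11 were higher, with a median of −0.17. In the cytokines and alarmins, 3 of 4 were lower, with Il33 at −0.75 (standard error 0.56). Il1b, the main substrate gene of the pathway, read 1.42, −0.94 and −0.48 in RG@M-γ-CD and 1.04, 0.98 and 0.89 in PBS, so that RG@M-γ-CD replicate 1 was above and replicates 2 and 3 below the PBS arrays, as in Nlrc4 and Gsdmd. Its difference was −0.97 (standard error 0.58, adjusted p = 1.0 from limma), −1.68 without RG@M-γ-CD replicate 1 (adjusted p = 0.0337) and −1.22 in arrays 6, 7 and 8 minus the others (unadjusted p = 0.0463). Il18 did not follow it, with a difference of 0.11 (standard error 0.23). Il1a, Gsdma3, Nlrp12 and Card9 were not well above background on any array.

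**Figure D3:**
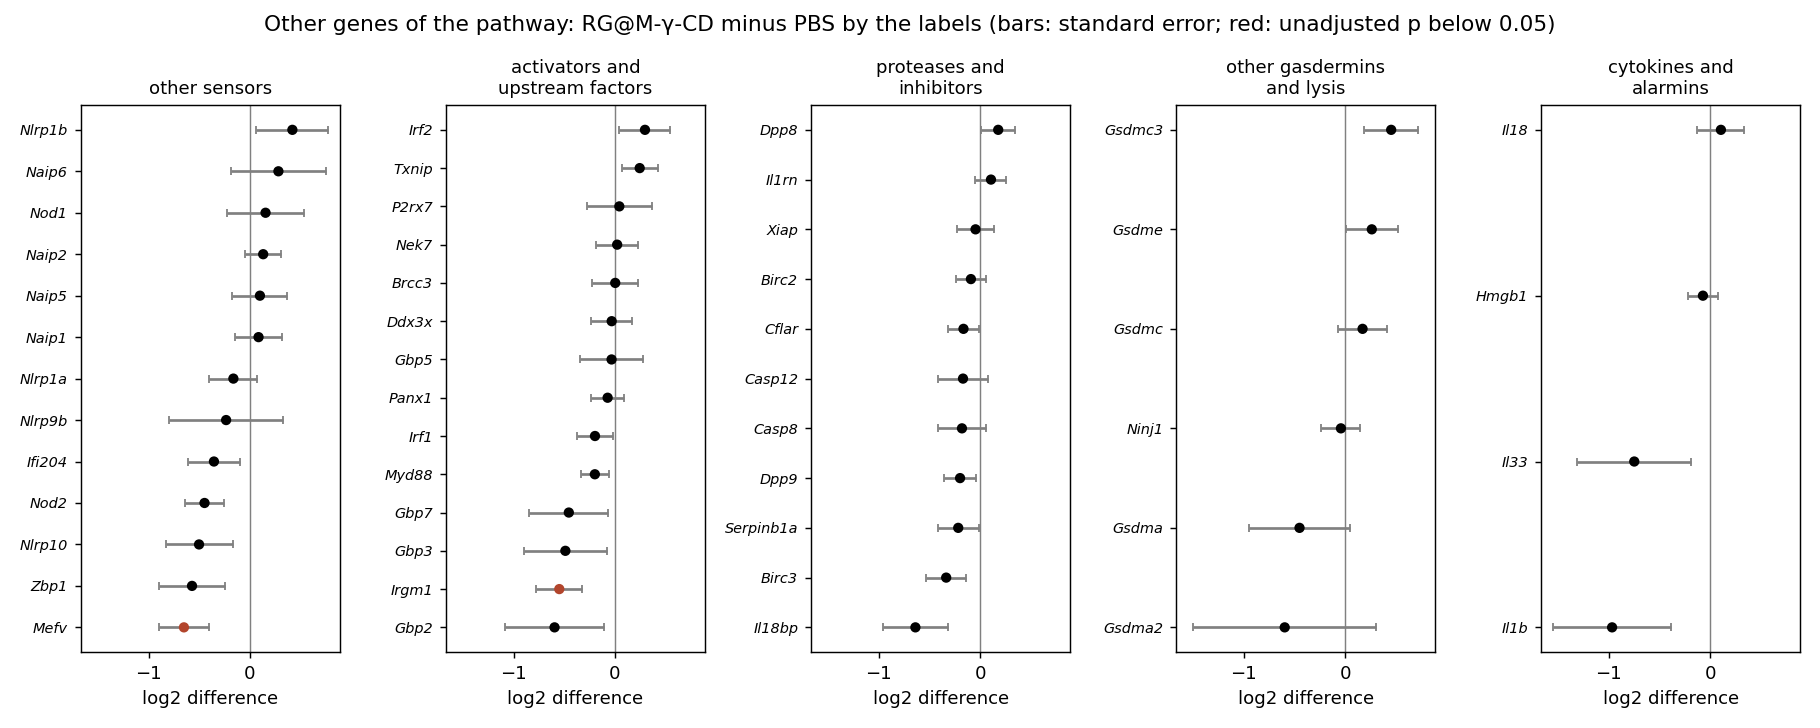
Difference between RG@M-γ-CD and PBS as labelled (horizontal axes, log2 scale) for the 48 tested genes of the pathway outside the members, by role; bars are standard errors (n = 3 arrays a group) and red points have an unadjusted p below 0.05. Mefv at −0.65 and Irgm1 at −0.55 are red, and 31 of the 48 points lie below 0.

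The members fell into different orders across the 6 arrays. Of the 36 pairs of tested members, Casp1 and Gsdmc4 had the highest Pearson correlation over the 6 arrays (r = 0.96, Spearman's rho = 0.94), and 0.91 without RG@M-γ-CD replicate 1 and PBS replicate 1, the arrays farthest from the median of Casp1. Gsdmc4 and Nlrp6 had the same rank order (r = 0.89, rho = 1). Nlrp6 and Gsdmd were opposed (r = −0.88, rho = −0.83), and Gsdmd and Nlrc4 ran together (r = 0.86, rho = 0.94). The pair Casp1 and Pycard, at r = 0.78, fell to 0.032 without the same arrays and so rested on them. These values describe 6 arrays in 2 groups, whose marker sums for cell types also differed between arrays, and no p is given for them, since the pairs were picked as the extremes.

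The genes whose levels followed Nlrp6 most closely among all tested were Ces2c, a carboxylesterase (r = 0.998 over 6 arrays), the transcript CB248850 (r = 0.997) and Htr4, a serotonin receptor (r = 0.996). Without RG@M-γ-CD replicates 1 and 2 these values were 0.993, 0.995 and 0.989. Ces2c read 1.75, 3.70 and 3.38 in RG@M-γ-CD and 2.61, 2.72 and 2.85 in PBS, the same order of arrays as Nlrp6. For Casp1 the closest genes were Ttll7 (r = 0.997), Boc (r = 0.995) and Isg20, an interferon-induced exonuclease (r = 0.992). Without RG@M-γ-CD replicate 1 and PBS replicate 1 these values fell to 0.89, 0.84 and 0.64. For Gsdmc2 the closest genes were Sepsecs (r = 0.976), 1700019D03Rik (r = 0.967) and Srsf4, a splicing factor (r = 0.961). Without RG@M-γ-CD replicate 2 and PBS replicate 1 these values were 0.97, 0.71 and 0.97. These genes were picked as the highest of 19087 over 6 arrays, and the values are a description.

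Markers of cell types that the tissue can hold were read on the same arrays. All 8 goblet cell genes and all 8 smooth muscle genes were well above background on all 6 arrays. The goblet sum was 563, 1736 and 1339 in RG@M-γ-CD and 916, 1869 and 1414 in PBS, lowest in RG@M-γ-CD replicate 1 and PBS replicate 1, as Casp1 and Gsdmc4 were. The surface colonocyte sum was 163, 247 and 581 in RG@M-γ-CD and 166, 417 and 367 in PBS. It was lowest in the same pair of arrays and highest in RG@M-γ-CD replicate 3, which is not the order of Nlrp6. Single genes of this list differed in their order. Slc26a3 read −2.36, 3.09 and 2.01 in RG@M-γ-CD and 1.13, 0.88 and 1.24 in PBS. It thus had the extremes of Nlrp6, as did Aqp8, while no other gene of the list had them. The smooth muscle sum had the same extremes as Nlrp6, with RG@M-γ-CD replicate 1 at 104, replicates 2 and 3 at 675 and 809, and the PBS arrays at 199 to 232. The macrophage sum, 177, 79.2 and 85.8 in RG@M-γ-CD and 154, 178 and 172 in PBS, had its lowest arrays where Gsdmd and Nlrc4 had theirs. Lyz2, at 5.45 to 7.09 on the log2 scale, was the brightest gene of this list and made up most of its sum. Itgam of the same list had another order, lowest in RG@M-γ-CD replicate 1 (1.94) and highest in replicate 2 (3.58). The share of cell makeup in these members' levels was not tested.

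**Figure D4:**
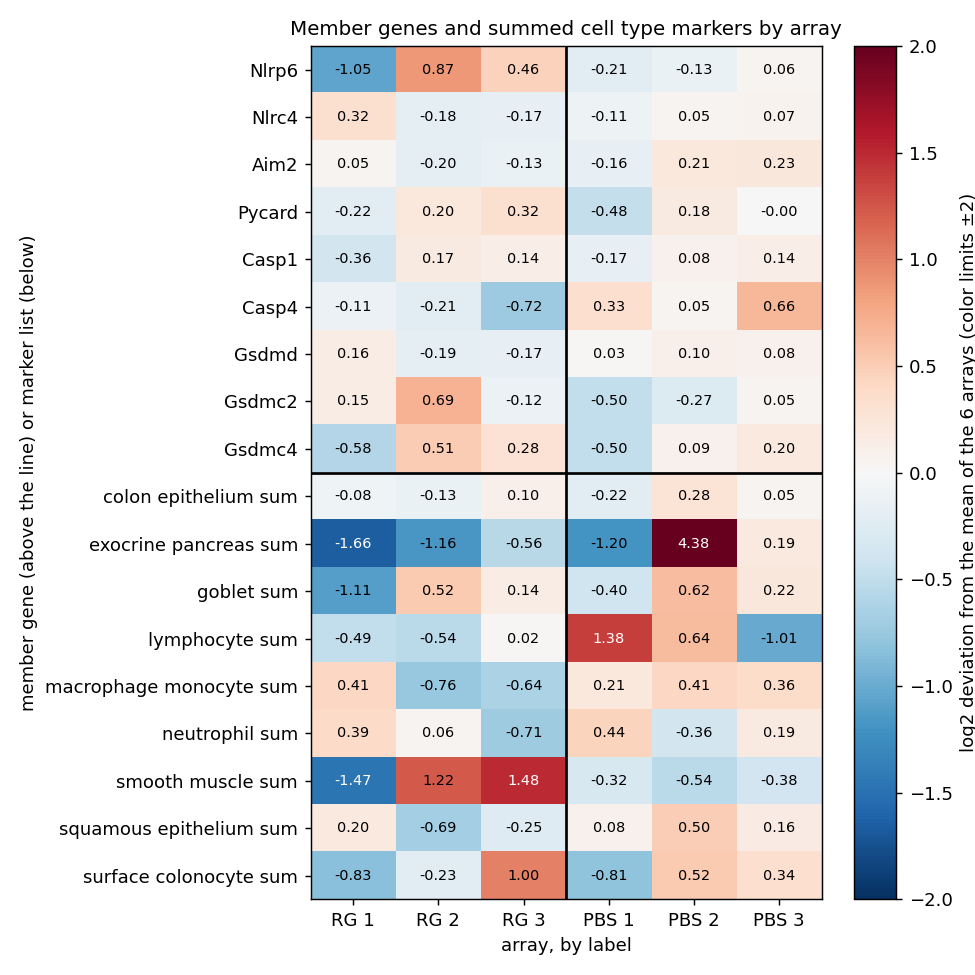
Deviation of each member's level (rows above the line) and of each summed marker list (rows below it, log2 of the sum) from its mean over the 6 arrays, which are the columns; red is above and blue below the mean, with colors limited to ±2 and the value written in each cell. In RG@M-γ-CD replicate 1, Nlrp6 and the goblet and smooth muscle sums are below their means while Gsdmd, Nlrc4 and the macrophage sum are above theirs, and replicates 2 and 3 show the reverse.

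Neutrophil markers had 4 of 8 genes well above background on all 6 arrays, with 7 of 8 lower as labelled and a median of −1.38. S100a9, a calprotectin subunit, read 5.73, 0.95 and 2.02 in RG@M-γ-CD and 4.83, 4.07 and 5.06 in PBS, so replicate 1 was again the highest and replicates 2 and 3 the lowest. Without RG@M-γ-CD replicate 1 the median of the neutrophil list was −2.54, with 2 genes past the adjusted threshold, Cxcr2 and S100a9. Cxcr2 was tested because it was bright throughout PBS. It read −6.46 and −5.91 in RG@M-γ-CD replicates 2 and 3, below the dimmest signals well above background there, −4.16 and −4.24. Its difference is thus one from a signal at the floor. Other genes of the list that were dim on some RG@M-γ-CD arrays also entered both medians through PBS. In the fit without RG@M-γ-CD replicate 1, 0.88% of all genes passed, and 6 of 8 smooth muscle genes did, with a median of 1.82. The smooth muscle count reuses the values that set this array apart, so it is no separate support. The neutrophil sum, 47.0 to 101 in RG@M-γ-CD and 59.7 to 104 in PBS, did not have this order, and Csf3r, which carried most of it in RG@M-γ-CD replicate 2, was highest on that array, at 6.25. Lymphocyte markers summed to 4.42 to 6.49 in RG@M-γ-CD and 3.19 to 16.7 in PBS, and Cd8a was at background throughout. Squamous epithelium markers summed to 12 to 22.2 and 20.5 to 27.4. Exocrine pancreas markers were at or near background except in PBS replicate 2, where they summed to 12.6 against 0.19 to 0.70 on the other arrays, and Prss1 was at background throughout. On PBS replicate 2 the tested members lay between the other PBS arrays, except Casp4, the lowest of them at 3.70, and Pycard and Gsdmd, the highest at 5.51 and 3.94.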

How the data were processed

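Total RNA was labelled with Cy3 and hybridised to 1 one-color Agilent array for each mouse. Per the file headers, the deposited intensity of each spot was background-subtracted and detrended by the scanner software (Agilent Feature Extraction 10.7.1.1 in the submitters' processing notes) and was not normalized between arrays. The authors also deposited a table of log2 values per probe, used as an alternative, and its normalization method is not given in the sources used here. Its member differences nearly equal those after quantile normalization, as in Nlrp6 (0.245 and 0.244) and Gsdmc2 (0.490 and 0.490). Probe coordinates are those of the scanner output (mm9), and which exon or untranslated region a probe lies in was not analysed here.

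Computation used R (version 4.3.3) and its package data.table (version 1.17.8). Control spots and 790 outlier spots were dropped, log2 intensities were taken relative to the 75th percentile of each array, spots of a probe were averaged, and 32994 of 56605 gene probes were named through their accession. The scanner's mark on a share of 0.5 or more of a probe's spots made it well above background. Each gene was tested on its brightest probe with limma 3.58.1 and Benjamini-Hochberg adjustment at 0.05. No spot was saturated, signal over background stands in for depth, and the 3 arrays per group limit the precision. An exact permutation test of 3 against 3 arrays cannot give a two-sided p below 0.1. Each array came from its own mouse.

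Members and gene lists were chosen with earlier results of these data known, and the fit was checked on simulated data. Named were all members, pathway genes at an unadjusted p below 0.05 with the 3 largest rises and falls, the 3 genes most like Nlrp6, Casp1 and Gsdmc2, and, in each marker list, genes not well above background. The genes Gsdmc, Il18, S100a9, Cxcr2, Csf3r, Slc26a3, Aqp8, Lyz2 and Itgam were named after their values were seen. Alternatives were quantile normalization, normexp, the deposited table, other filters on dim probes, the mean of a gene's probes, the replicate number or slide row as a block, the methods' t-test, the heat map grouping, and leaving out each array.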

Additional observations from a re-analysis of the deposited data

How the results depend on the processing

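No alternative moved a member past the adjusted threshold. Of all genes, 0 passed as labelled, 5 passed in the heat map grouping, and 0 to 168 with each array left out, the 168 without RG@M-γ-CD replicate 1. In 120 of 135 refits of a member with the labels kept, the difference kept its direction. It turned in the 15 others, which concern Nlrp6, Nlrc4, Aim2, Casp1 and Gsdmc4. The other filters on dim probes, the replicate block and the methods' t-test left each member's difference unchanged. Those refits are among the 120 and say nothing on how firm the directions are. Quantile normalization and the deposited table gave nearly the same differences, so they are not separate checks. With normexp, Nlrc4 stood at 0.0067 and Casp1 at 0.013. Casp1 was 0.095 in the heat map grouping. With the slide row as a block, which lifted the median of all genes from −0.012 to 0.097, Nlrc4 was 0.099, Aim2 0.072 and Casp1 0.16. That fit sets RG@M-γ-CD against PBS replicate 1 alone, so it cannot separate the row from the treatment. Leaving out each array gave −0.20 to 0.76 for Nlrp6, −0.18 to 0.072 for Nlrc4, −0.13 to 0.14 for Casp1, −0.080 to 0.46 for Gsdmc4, 0.0089 to 0.36 for Pycard, 0.25 to 0.66 for Gsdmc2, −0.31 to −0.11 for Aim2, −0.25 to −0.075 for Gsdmd, and −0.080 to 0.14 for the median of the members. Without PBS replicate 1 the difference in Gsdmc4 was −0.075.

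The study's methods name an unpaired t-test and no pairing of mice by replicate number. Deviations of same-numbered arrays from their group means correlated at −0.25, −0.23 and 0.14. Arrays of different numbers were not compared in this way, so these values cannot decide whether same-numbered mice were paired. With the replicate block 0 genes passed, each member's difference was as before, and the unadjusted p of Casp4 was 0.0682. It was 0.0548 with the methods' t-test. That test counted 45 genes at a fold change of 2 and an unadjusted p of 0.05, 0 of them members, and 0 genes after adjustment. The cause of these changes was not tested. A signal near background, as for Nlrp3, sets what these arrays can measure.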
